A study of Mus musculus with 12 samples.

Results

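Small structured RNAs with no protein product were followed in cultured mouse cardiac fibroblasts: the small nucleolar RNAs (symbols beginning Snora or Snord), small Cajal body RNAs (Scarna), small nuclear RNAs (Rnu), Y RNAs (Rny), 7SK RNA (Rn7sk) and the RNA subunits of RNase MRP (Rmrp) and RNase P (Rpph1). Members were taken by their symbol from the probe sets that carry exactly 1 gene symbol. The rule found 64 genes by symbol, measured by 71 probe sets, among 19938 genes and 21789 single-symbol probe sets in a table of 28853. Of the 71, 33 were Snord, 23 Snora, 5 Rnu, 4 Scarna, 2 Rny and 2 Rn7sk probe sets, with 1 each for Rmrp and Rpph1. A further 63 probe sets carry a symbol of these families together with other symbols and were not used here. The Scarna17, Snora30 and Snord118 probe sets come in pairs with identical values on all 12 arrays, so each pair is 1 measurement.

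The cells were cardiac colony-forming-unit fibroblasts (cCFU-F) from hearts of male C57BL/6 mice aged 12 weeks, sorted as SCA1+, PDGFRα+ and CD31- and then grown as bulk cultures at P0, so they stand for a selected fraction of fibroblasts in a dish rather than in the heart. There were 4 groups of 3 arrays: untreated cells, cells given PDGF-AB at 50 ng/ml, and cells given AG1296 at 1 uM or at 10 uM. PDGF-AB is a ligand of the PDGF receptors and AG1296 is a tyrosine kinase inhibitor of those receptors, and the series asks about PDGFR-alpha signalling in these cells. No genetic change is described for any group, and neither the vehicle nor the length of treatment is stated in the labels. The labels do not say whether replicates came from separate cultures or animals, so p-values measure only the spread between these arrays.

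Values are log2 expression, and the median of single-symbol probe sets was 4.41 to 4.49 on the 12 arrays. Arrays of a group correlated across probe sets at r of 0.992 to 0.996. Of 10 fibroblast markers, 9 lay above the median level in untreated cells, against 1 of 10 endothelial, 1 of 11 leukocyte, 1 of 10 cardiomyocyte and 5 of 10 pericyte and smooth muscle markers. Of the defining markers, Pecam1 (3.02 in untreated cells), Ptprc (2.95), Myh6 (2.98) and Rgs5 (2.55) were below that median. The defining cardiomyocyte marker Tnnt2 (7.01) was above it, as were the fibroblast markers Pdgfra (9.42) and Col1a1 (11.08). The markers above it outside the fibroblast list were Egfl7 (4.92), Lyz2 (5.61), Tnnt2 (7.01), Mcam, Cnn1, Acta2, Pdgfrb and Notch3. In bulk RNA, fewer cells of a type and less RNA per cell cannot be told apart.

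Small nucleolar RNAs guide chemical changes of ribosomal RNA: box C/D RNAs (Snord) direct 2′-O-methylation and box H/ACA RNAs (Snora) direct pseudouridylation, and a few of either kind take part in cutting the ribosomal RNA precursor. In mammals most of them are cut from introns of other genes. Small Cajal body RNAs guide the same changes on spliceosomal RNAs. RNase P RNA, RNase MRP RNA, 7SK and the Y RNAs are instead transcribed from genes of their own by RNA polymerase III, with promoters that lie mostly upstream of the RNA. RNase P trims the 5′ ends of tRNAs, RNase MRP cuts the ribosomal RNA precursor, 7SK holds the elongation factor P-TEFb inactive, and Y RNAs bind the Ro60 protein.

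No promoter of a member is given in the sequence tables used here, so the 2 promoters shown belong to the protein-coding neighbours of Rpph1 and Rmrp, whose intervening DNA is short. In the gene records, 125 bases lie between Rpph1 and Parp2 and 280 between Rmrp and Ccdc107. Both windows (RefSeq, GRCm38.p6, 250 bases before to 50 after the gene's start, printed on the + strand) hold the octamer ATGCAAAT, the binding element of the POU factor Oct-1 and a known part of promoters of this RNA polymerase III type. The octamer is in capitals, and in the Parp2 window it lies on the opposite strand. The windows are placed on a transcript start that is not the gene record's end used for those distances. The first 106 bases of the Parp2 window are Rpph1 itself, and the Ccdc107 window begins 55 bases beyond the end of Rmrp.
Parp2 promoter, chr14:50807666-50807965: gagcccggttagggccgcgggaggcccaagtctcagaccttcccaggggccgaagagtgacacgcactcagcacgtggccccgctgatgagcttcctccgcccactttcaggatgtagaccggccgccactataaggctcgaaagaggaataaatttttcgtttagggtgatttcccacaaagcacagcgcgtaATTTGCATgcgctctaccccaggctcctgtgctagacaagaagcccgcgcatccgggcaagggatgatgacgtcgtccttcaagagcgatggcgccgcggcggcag
Ccdc107 promoter, chr4:43493115-43493414: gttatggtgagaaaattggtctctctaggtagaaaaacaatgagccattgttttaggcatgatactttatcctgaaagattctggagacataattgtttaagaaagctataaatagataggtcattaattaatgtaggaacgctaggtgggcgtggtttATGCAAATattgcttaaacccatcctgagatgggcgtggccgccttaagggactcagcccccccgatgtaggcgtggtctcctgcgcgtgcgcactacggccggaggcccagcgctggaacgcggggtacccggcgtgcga
The octamer starts at position 195 of the Parp2 window and at position 160 of the Ccdc107 window, counted from the first printed base. Searched on both strands, and with no other motif searched, it was found in 570 of 32851 promoter windows of the same length (1.74%). A match describes the letters and is not evidence of binding.

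The third array of the AG1296 10 uM group stood apart from the other two for these RNAs, so results that rest on it are given with and without it. Over the 33 members whose mean level lies above the median of all single-symbol probe sets (4.46), the median difference from the untreated mean was -0.31 and -0.44 on replicates 1 and 2 of that group and 0.02 on replicate 3. The AG1296 1 uM arrays were at -0.44, -0.45 and -0.53. The PDGF-AB arrays were at -0.09, 0.01 and 0.15, and the untreated arrays at -0.05, 0.08 and -0.01. AG1296 10 uM replicate 3 was the highest of its group for 23 of the 33 members, while among all probe sets above the median level it was the highest in 23.7%. That count alone does not set it apart, since PDGF-AB replicate 3 and untreated replicate 2 were each the highest of their group for 21 of the 33, against 30.6% and 42.4% of all such probe sets.

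**Figure D1:**
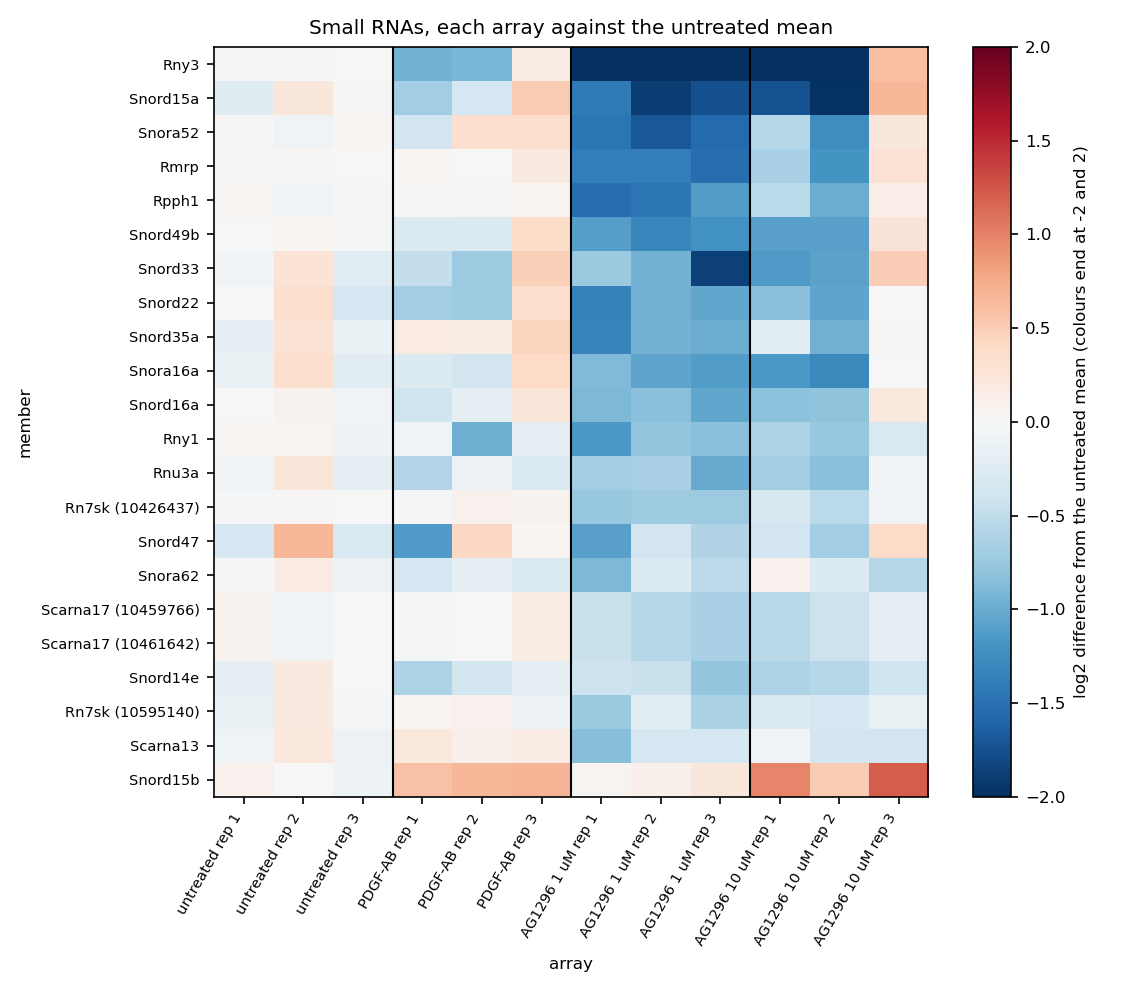
Heat map of 22 member probe sets (rows), each array (columns) coloured by its log2 difference from the untreated mean, with blue lower and red higher and colours ending at -2 and 2. The 3 AG1296 1 uM arrays are blue for the upper rows, as are replicates 1 and 2 of AG1296 10 uM, while AG1296 10 uM replicate 3 is close to or above untreated for most of them and Snord15b is red in the PDGF-AB and AG1296 10 uM arrays.

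At 1 uM AG1296, every subclass had at least 1 probe set with a lower mean than in untreated cells. Of 71 member probe sets, 54 had a lower mean (52.7% of all probe sets did), and 12 of these, for 11 symbols, fell past a Benjamini-Hochberg adjusted p of 0.05 in limma, fitted on all 12 arrays and adjusted over all 21789 probe sets. None rose past the threshold. Over all probe sets, 2.92% passed in this comparison, 1.21% as lower and 1.71% as higher. The 12 were Rmrp, Rpph1, 1 of 2 Rn7sk probe sets, Rny1, Rny3, Rnu3a, both Scarna17 probe sets, Snora52, Snord16a, Snord35a and Snord49b. The 3 treated arrays lay below the 3 untreated ones for 30 member probe sets, of 27 symbols, and above them for 2. Of all probe sets, 9.97% and 9.94% did so. The pericyte and smooth muscle list had a mean level of 5.67 to 5.78 on the 1 uM arrays and 5.86 to 5.87 on the untreated ones. Its median difference was 0.003, beside -0.01 for all probe sets, and 2 of its 10 genes fell (Mcam and Cnn1). Of 10 endothelial markers, 1 was higher past the threshold. The fibroblast list was at 9.33 to 9.38 against 8.96 to 9.01, with 3 of 10 genes higher past the threshold, and its gene Pdgfra fell by 0.91 ± 0.09 (limma, adjusted p = 4.8e-05). The part of these cell type markers in the result was not tested.

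The count depends on taking the table's scale as given. When each array was instead centred on the median of the members themselves, 14 members were called higher and 12 lower, and the shift moved the median of all probe sets by 0.40. Of all probe sets, 33.7% were then called higher and 0.266% lower. The 12 lower ones then were Rny3, Snord15a, Snora52, Rmrp, Rpph1, Snord49b, Snord33, Snord22, Snord35a, Snora16a, Snord16a and Rny1, and of these Snord15a, Snord33, Snord22 and Snora16a did not pass on the table's own scale.

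RNase MRP and RNase P RNAs were both lower at 1 uM. The level of Rmrp (probe set 10512487) was 10.39, 10.44 and 10.43 in untreated cells, 10.46, 10.43 and 10.60 with PDGF-AB, 9.03, 9.04 and 8.89 with 1 uM AG1296, and 9.77, 9.23 and 10.70 with 10 uM. The 1 uM arrays lay well below the untreated and PDGF-AB arrays, and the 10 uM arrays spread from just above the 1 uM level to above untreated. The difference at 1 uM was -1.43 ± 0.25 (SE, n = 3 arrays per group), a level 2.70-fold lower (limma, adjusted p = 0.00583). Rpph1 (probe set 10419469) was at 12.78, 12.66 and 12.75 in untreated cells, 12.75, 12.75 and 12.78 with PDGF-AB, 11.20, 11.28 and 11.61 with 1 uM AG1296, and 12.19, 11.73 and 12.86 with 10 uM. Again the 1 uM arrays did not overlap any other group. Rpph1 fell by 1.36 ± 0.21 on the log2 scale, to a level 2.57-fold lower (limma, adjusted p = 0.00209).

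The genes next to these RNAs did not pass the test. Parp2, a DNA repair enzyme whose promoter is shown above, was at 5.44 ± 0.10 (SD, n = 3) in untreated cells and 5.64 ± 0.16 at 1 uM, a difference of 0.21 ± 0.12 (limma, adjusted p = 0.529). Ccdc107 was at 7.02 ± 0.03 and 7.22 ± 0.09, a difference of 0.20 ± 0.08 (limma, adjusted p = 0.280). The neighbours were looked up after the members' values were known.

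7SK RNA, which restrains transcription elongation, was measured by 2 probe sets. Probe set 10426437 gave 12.92, 12.98 and 12.96 in untreated cells, 12.92, 13.04 and 13.02 with PDGF-AB, 12.19, 12.24 and 12.22 with 1 uM AG1296, and 12.63, 12.42 and 12.90 with 10 uM. The 1 uM arrays lay within 0.05 of each other and below all others, and the difference from untreated was -0.74 ± 0.11 (1.66-fold lower, limma, adjusted p = 0.00146). Probe set 10595140 gave 12.57, 12.90 and 12.68 in untreated cells and 11.98, 12.49 and 12.09 at 1 uM, a difference of -0.53 ± 0.13 that just missed the threshold (limma, adjusted p = 0.0501). The groups did not overlap on either probe set.

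The Y RNAs are the ligands of Ro60, a ring-shaped RNA-binding protein known for its part in RNA quality control. The level of Rny3 was 9.02, 8.98 and 8.99 in untreated cells, 8.05, 8.08 and 9.14 with PDGF-AB, 6.58, 6.35 and 6.41 with 1 uM AG1296, and 6.79, 6.88 and 9.60 with 10 uM. Untreated and 1 uM arrays were each close together and far apart from each other, whereas 1 PDGF-AB array and 1 AG1296 10 uM array, both replicate 3, were above all untreated arrays. Rny3 fell by 2.55 ± 0.55, a level 5.86-fold lower and the largest fold among the members (limma, adjusted p = 0.0234). The SD was 0.62 with PDGF-AB and 1.60 at 10 uM, which enter the shared error, and the call was lost when any 1 of the 6 arrays compared was left out (limma, adjusted p up to 0.0975 over the alternatives). Rny1 was dim, at 3.34, 3.34 and 3.20 in untreated cells and 2.14, 2.50 and 2.45 at 1 uM. The difference was -0.93 ± 0.20 (limma, adjusted p = 0.0212), on a level below the array medians.

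Among small Cajal body RNAs, Scarna17 was at 8.60, 8.46 and 8.52 in untreated cells, 8.49, 8.52 and 8.67 with PDGF-AB, 8.09, 7.95 and 7.87 with 1 uM AG1296, and 7.98, 8.09 and 8.34 with 10 uM. All 6 inhibitor arrays lay below all 6 others. The difference at 1 uM was -0.56 ± 0.11, a level 1.47-fold lower (limma, adjusted p = 0.00977). Scarna13 was at 6.10, 6.39 and 6.07 in untreated cells and 5.34, 5.86 and 5.84 at 1 uM, which did not pass (-0.51 ± 0.14, limma, adjusted p = 0.0854). Scarna8 was at 3.43 ± 0.07 (SD, n = 3) in untreated cells and 3.32 ± 0.25 at 1 uM (limma, adjusted p = 0.776).

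Of the 5 Rnu probe sets 4 had a lower mean at 1 uM, and only Rnu3a fell past the threshold. Over all probe sets, 52.7% had a lower mean and 1.21% passed as lower. Rnu3a is U3, a box C/D RNA needed to cut the ribosomal RNA precursor, in spite of its symbol. It was at 4.82, 5.14 and 4.71 in untreated cells, 4.30, 4.76 and 4.59 with PDGF-AB, 4.19, 4.24 and 3.88 with 1 uM AG1296, and 4.19, 4.05 and 4.83 with 10 uM. The difference at 1 uM was -0.78 ± 0.19 (limma, adjusted p = 0.0460), close to the threshold. This call was lost when any 1 of the 6 arrays compared was left out. Rnu12, the U12 RNA of the minor spliceosome, was at 5.17 ± 0.06 (SD, n = 3) in untreated cells and 5.01 ± 0.07 at 1 uM, and did not pass (limma, adjusted p = 0.452). The probe sets of Rnu5g (spliceosomal U5), Rnu6 (spliceosomal U6) and Rnu7 (histone mRNA processing) had untreated means of 1.60, 1.49 and 1.76, well below the array medians, and their differences at 1 uM were -0.14, -0.01 and 0.36 with adjusted p (limma) of 0.616, 0.994 and 0.730.

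**Figure D2:**
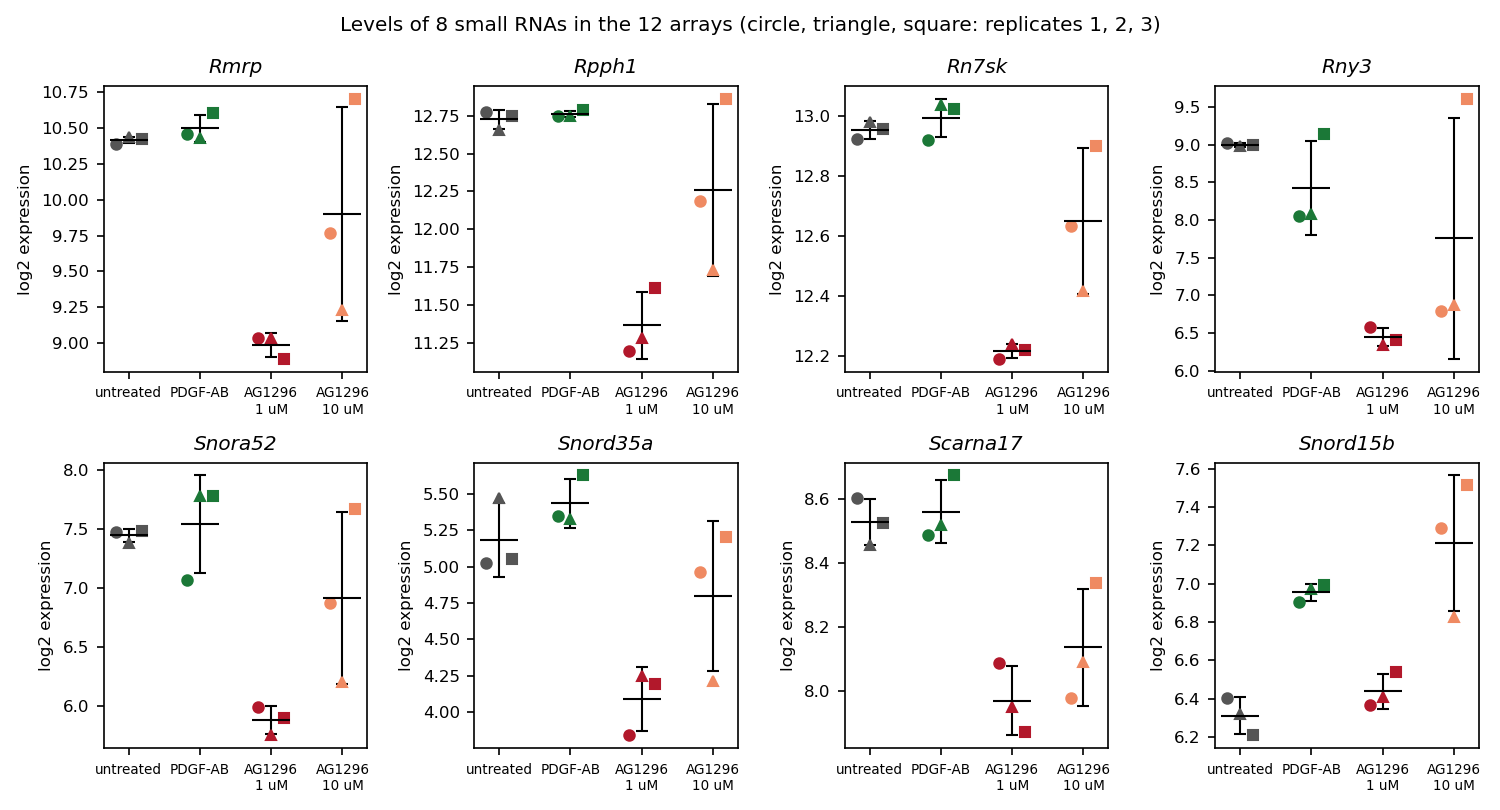
Log2 expression of 8 small RNAs (1 panel each, own vertical axis not starting at 0) in the 4 groups, with points for single arrays (circle, triangle and square for replicates 1, 2 and 3) and bars for mean ± SD of 3 arrays. In 7 panels the 1 uM AG1296 arrays lie below all untreated arrays, and the square of the 10 uM group is the highest of its group in all 8 panels, at 9.60 for Rny3.

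Among the 23 box H/ACA probe sets, 15 had a lower mean at 1 uM and 1 fell past the threshold, with a subclass median of -0.14. Of all probe sets, 52.7% had a lower mean and 1.21% passed as lower. Snora52 was at 7.47, 7.38 and 7.48 in untreated cells, 7.06, 7.78 and 7.77 with PDGF-AB, 5.98, 5.75 and 5.90 with 1 uM AG1296, and 6.87, 6.20 and 7.67 with 10 uM. The 1 uM arrays were low and apart from every other group. The difference was -1.57 ± 0.28, a level 2.96-fold lower (limma, adjusted p = 0.00669). Snora16a was at 5.24, 5.71 and 5.17 in untreated cells and 4.50, 4.33 and 4.26 at 1 uM, without overlap, but did not pass (-1.01 ± 0.29, limma, adjusted p = 0.0953). Snora62 (-0.57 ± 0.17) and Snora74a (-0.41 ± 0.14) had adjusted p (limma) of 0.106 and 0.170. Snora73a and Snora73b, the U17 RNAs that act in ribosomal RNA cutting rather than as guides, differed by 0.03 ± 0.15 and 0.11 ± 0.14. Snora75 had the largest positive difference, with 2.76, 2.94 and 2.68 in untreated cells and 3.31, 3.03 and 3.23 at 1 uM, which did not pass (0.40 ± 0.12, limma, adjusted p = 0.121).

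Among the 33 box C/D probe sets, 25 had a lower mean and 3 fell past the threshold, with a subclass median of -0.22. The shares over all probe sets were again 52.7% with a lower mean and 1.21% passing as lower. Snord35a was at 5.02, 5.47 and 5.05 in untreated cells, 5.35, 5.33 and 5.63 with PDGF-AB, 3.84, 4.25 and 4.19 with 1 uM AG1296, and 4.96, 4.22 and 5.21 with 10 uM. It is 1 of the RNAs in the Rpl13a gene that are known for a part in the response to lipid stress. The difference at 1 uM was -1.09 ± 0.21, a level 2.13-fold lower (limma, adjusted p = 0.0130), with no overlap of the 1 uM and untreated arrays. Snord33, from the same gene, was at 5.77, 6.11 and 5.60 in untreated cells and 5.08, 4.88 and 3.96 at 1 uM. It did not overlap either, but its arrays spread widely and it did not pass (-1.18 ± 0.42, limma, adjusted p = 0.209).

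Snord49b was at 6.69, 6.75 and 6.69 in untreated cells, 6.42, 6.43 and 7.08 with PDGF-AB, 5.61, 5.41 and 5.50 with 1 uM AG1296, and 5.62, 5.63 and 6.97 with 10 uM. Snord16a was at 5.23, 5.32 and 5.18 in untreated cells, 4.84, 5.05 and 5.48 with PDGF-AB, 4.34, 4.40 and 4.20 with 1 uM AG1296, and 4.42, 4.44 and 5.43 with 10 uM. Both show tight, separate groups for untreated and 1 uM, and in both AG1296 10 uM replicate 3 alone of its group was at or above untreated. Their differences at 1 uM were -1.20 ± 0.29 (limma, adjusted p = 0.0396) and -0.93 ± 0.23 (limma, adjusted p = 0.0456). Both calls were lost on leaving out any 1 of the 6 arrays compared. Snord22 and Snord14e, both of kinds that act in cutting the ribosomal RNA precursor, differed by -1.11 ± 0.30 and -0.55 ± 0.14 and missed the threshold (limma, adjusted p = 0.0674 and 0.0529).

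Snord15a and Snord15b lie in the same gene, Rps3, and gave unlike values. The level of Snord15a was 5.22, 5.69 and 5.48 in untreated cells, 4.76, 5.11 and 5.97 with PDGF-AB, 4.05, 3.56 and 3.70 with 1 uM AG1296, and 3.72, 3.48 and 6.12 with 10 uM. The 1 uM arrays did not overlap untreated, with a difference of -1.69 ± 0.52 that did not pass (limma, adjusted p = 0.131). Snord15b was at 6.40, 6.32 and 6.21 in untreated cells, 6.90, 6.97 and 6.99 with PDGF-AB, 6.37, 6.41 and 6.54 with 1 uM AG1296, and 7.29, 6.82 and 7.52 with 10 uM. Here the PDGF-AB and 10 uM arrays were the high ones and the 1 uM arrays overlapped untreated (0.13 ± 0.14, limma, adjusted p = 0.810). Whether the 2 RNAs differed in their response was not tested. Rps3 itself, at 11.04 in untreated cells, differed by 0.04 at 1 uM.

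Snord47 was at 3.82 ± 0.57 (SD, n = 3) in untreated cells and 3.12 ± 0.36 at 1 uM, a difference of -0.70 ± 0.39 that did not pass (limma, adjusted p = 0.505). Snord57, with a mean of 7.43 over all arrays, and Snord104, with 6.15, differed by -0.46 ± 0.25 and -0.28 ± 0.17. The dimmest probe sets, 2 for Snord58b and those of Snord38a, Snora69 and Snord61, had means of 1.62 to 2.08 over all arrays and differences from -0.09 to 0.16. The largest positive differences after Snora75 were those of Snora3 (0.24), Snord95 (0.23), Snord96a (0.22) and Snord35b (0.19), and none passed. The U8 RNA, Snord118, was at 2.46 ± 0.09 (SD, n = 3) in untreated cells and 2.24 ± 0.11 at 1 uM.

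Most of the larger differences were at higher levels. Of the 33 members above the median level, 26 had a lower mean at 1 uM, 11 fell past the threshold and 24 did not overlap, with a median of -0.53, beside 0.01 for all 10894 probe sets above it. Over those probe sets, 2.17% passed as lower and 13.1% did not overlap as lower. Of the 38 members below the median level, 28 had a lower mean, 1 fell past the threshold (Rny1) and 6 did not overlap, with a median of -0.13 beside -0.03 for all probe sets. Over all probe sets below that level, 0.257% passed as lower and 6.79% did not overlap as lower. Since dim probe sets also give compressed differences, a smaller difference there does not show a smaller change.

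**Figure D3:**
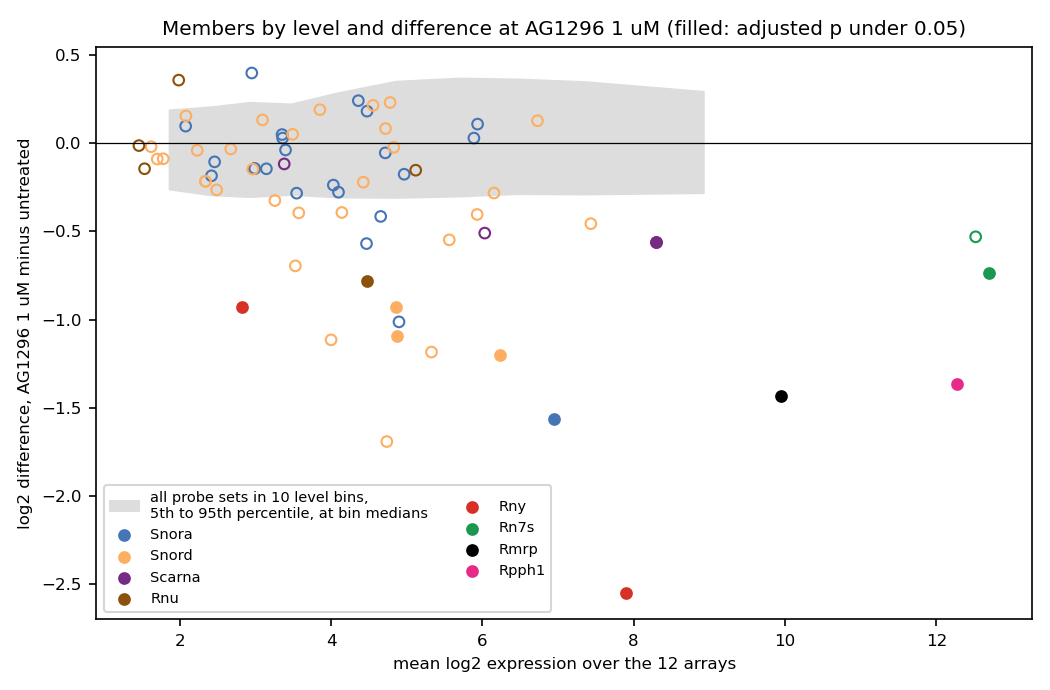
Log2 difference between 1 uM AG1296 and untreated cells (vertical) against mean log2 expression over the 12 arrays (horizontal) for the 71 member probe sets, coloured by subclass and filled where limma's adjusted p was under 0.05, with a grey band for the 5th to 95th percentile of all probe sets in 10 bins of level. Most members above a level of about 4.46 lie under the band, and Rny3 is the lowest at -2.55.

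RNAs outside other genes had a larger median difference than those inside them, a contrast that was not tested. In the RefSeq gene table, 10 member symbols (12 probe sets) lie in no other gene. They are Rmrp, Rpph1, Rn7sk, Rny1, Rny3, Rnu3a, Rnu6, Rnu7, Rnu12 and Snord118. Their median difference at 1 uM was -0.63, 11 of 12 were lower, 10 did not overlap as lower and 6 fell. The 59 probe sets inside another gene had a median of -0.14, with 43 lower, 20 not overlapping as lower and 6 that fell. These are counts of probe sets, so both copies of the identical Snord118, Scarna17 and Snora30 pairs are counted. Over all probe sets, 52.7% were lower, 9.97% did not overlap as lower and 1.21% passed as lower. Length was taken from the RefSeq gene record (62 bases for Scarna17) and was not measured on the RNA. By this length, the median was -0.63 for 8 probe sets of 200 bases or more. It was -0.15 for 31 of at least 100 and under 200 bases and -0.18 for 32 under 100 bases. The separate parts of length, level and origin were not tested.

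Host genes lay close to their untreated level. A host here is a gene whose span encloses the RNA, on either strand, so being cut from it was not shown. The measured host of Snord87 was thus Mcmdc2, dim at 2.01 in untreated cells, while the enclosing Snhg6 was not measured. For 30 member symbols inside a gene that was itself measured, the 26 hosts had a median difference of 0.04 at 1 uM and a range of -0.14 to 0.38, and 1 host passed the test (Srcap, the host of Snora30, 0.38, limma, adjusted p = 0.015). The members in them had a median of -0.16. For the 6 members with a difference of -0.5 or less, the host was between 0.01 and 0.28. Snora52 (-1.57) lies in Rplp2 (0.28), whose probe set was dim at 3.63 in untreated cells, Snord16a (-0.93) in Rpl4 (0.03), Snord47 (-0.70) in Gas5 (0.03), Snora62 (-0.57) in Rpsa (0.09) and Snord14e (-0.55) in Hspa8 (0.01). Across the 30 pairs Pearson's r was -0.04 and Spearman's rho 0.04, as a description of pairs that share arrays and, in part, hosts.

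RNAs that lie in the same gene gave like values in some pairs and unlike values in others. Close pairs were Snord35a (-1.09) and Snord33 (-1.18), Snord96a (0.22) and Snord95 (0.23), Snord42a (-0.04) and Snord42b (-0.02), Snord73a (0.13) and Snord73b (0.05), and Snora73a (0.03) and Snora73b (0.11). Snord49b (-1.20) and Snord49a (0.08 ± 0.13) share the non-coding gene 2410006H16Rik, and Snora16a (-1.01) and Snora44 (-0.14 ± 0.17) share Snhg12. Snora75 (0.40) and Snord82 (-0.39 ± 0.25) share Ncl, which encodes nucleolin. These are differences at 1 uM side by side, and none of the pairs was tested against each other.

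**Figure D4:**
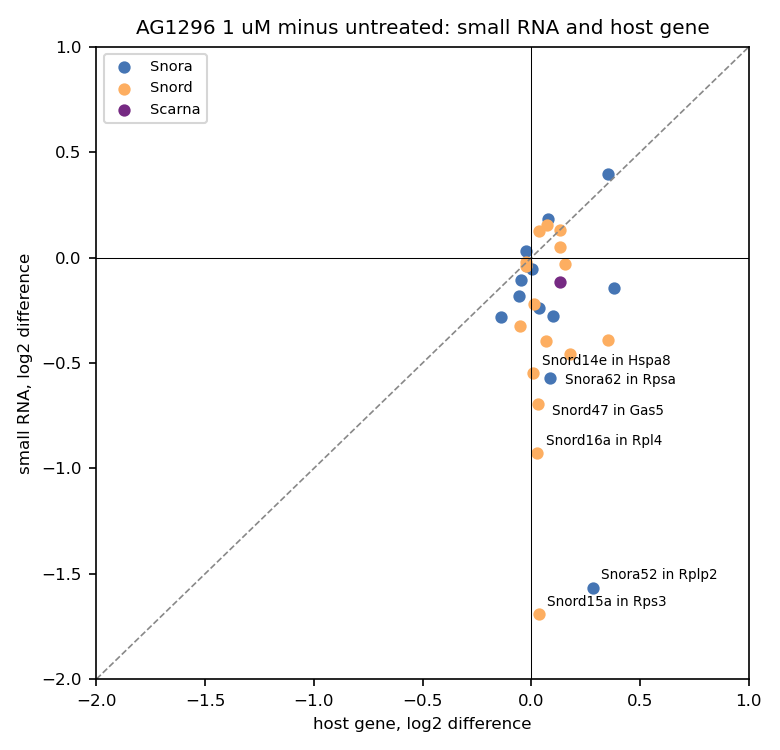
Log2 difference between 1 uM AG1296 and untreated cells for 30 small RNAs (vertical) and for the gene each lies in (horizontal), coloured by subclass, with a dashed line of equal values. Hosts range from -0.14 to 0.38, while the labelled small RNAs reach -1.69 for Snord15a in Rps3.

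At 10 uM AG1296, 1 member passed the test against untreated cells, where 1.78% of all probe sets did. It was Snord15b, which rose by 0.90 ± 0.14 to a level 1.87-fold higher (limma, adjusted p = 0.00440), with all 3 arrays above untreated. Of the 71 members 55 had a lower mean (48.3% of all probe sets did), and 9 did not overlap as lower against 8.16% of all probe sets. The means at 10 uM hide arrays that lie apart: of the 12 probe sets that fell at 1 uM, all 12 were below every untreated array on 10 uM replicates 1 and 2, while on replicate 3 only 4 were below, 2 were within the untreated range and 6 were above it.

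AG1296 10 uM replicate 3 was singled out by the values of these same members. Counts and p-values without it are therefore descriptions and no separate test of them. Without AG1296 10 uM replicate 3, 11 members fell and 1 rose at 10 uM, where 0.477% of all probe sets passed as lower and 0.835% as higher. They included Rny3 (-2.16 ± 0.25, limma, adjusted p = 0.00110), Snord15a (-1.86 ± 0.28, limma, adjusted p = 0.00612), Snora16a (-1.23 ± 0.21, limma, adjusted p = 0.0149) and Snord49b (-1.08 ± 0.17, limma, adjusted p = 0.00666). Rmrp (-0.92 ± 0.14) and Rpph1 (-0.77 ± 0.15) also passed, with adjusted p (limma) of 0.00578 and 0.0226. With that array they were -0.52 ± 0.25 and -0.47 ± 0.21 and did not pass (limma, adjusted p = 0.481 and 0.416). The rise of Snord15b was 0.75 ± 0.13 without it (limma, adjusted p = 0.0145). Leaving it out also moved the count at 1 uM, through the shared estimate of the spread, from 12 to 15 that fell (1.13% of all probe sets), with Snord15a, Snora16a and Snord22 added.

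Between the doses, 48 of 71 members had a higher mean at 10 uM than at 1 uM (54.2% of all probe sets did) and 1 rose past the threshold, Snord15b (0.77 ± 0.14, limma, adjusted p = 0.0385), where 0.294% of all probe sets passed. The largest other differences were those of Rny3 (1.31 ± 0.55), Snora52 (1.04 ± 0.28), Rmrp (0.91 ± 0.25) and Rpph1 (0.89 ± 0.21), with adjusted p (limma) of 0.510, 0.222, 0.230 and 0.129. For these 4 all 3 arrays at 10 uM lay above all 3 at 1 uM, replicates 1 and 2 included. Without AG1296 10 uM replicate 3 no member passed between the doses, where 0.0872% of all probe sets did, and Snord15b was at 0.62 ± 0.13 (limma, adjusted p = 0.144).

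PDGF-AB against untreated cells gave no call: 0 of 71 members passed in limma, and 0.262% of all probe sets did. An unadjusted p under 0.05 was found for 5 members, against 8.27% of all probe sets. With moderation that follows the intensity trend, or without dim probe sets, 1 member was called higher. The members' median difference was 0.03, beside 0.01 for all probe sets. Snord15b came closest, with PDGF-AB arrays of 6.90 to 6.99 above untreated ones of 6.21 to 6.40 (0.64 ± 0.14, limma, adjusted p = 0.104). Next were Snord35b (0.45 ± 0.14), Snora73b (0.43 ± 0.14), Snord104 (0.34 ± 0.17) and the 2 Snora21 probe sets (0.33 each), none of which passed. On the lower side stood Rny3 (-0.57 ± 0.55), Rny1 (-0.42 ± 0.20), Snord14e (-0.39 ± 0.14), Snord22 (-0.36 ± 0.30), Rnu3a (-0.34 ± 0.19), Snora62 (-0.27 ± 0.17) and Snord33 (-0.24 ± 0.42), also without passing.

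Against AG1296 1 uM, 10 members for 8 symbols were higher with PDGF-AB past the threshold and 0 lower, where 4.82% of all probe sets passed and 2.07% passed as higher. They were Snora52 (1.66 ± 0.28, 3.17-fold, limma, adjusted p = 0.00262), Rmrp (1.51 ± 0.25, 2.85-fold, limma, adjusted p = 0.00242), Rpph1 (1.40 ± 0.21, 2.63-fold, limma, adjusted p = 0.00104), Snord35a (1.34 ± 0.21, 2.54-fold, limma, adjusted p = 0.00178), Snord49b, both Rn7sk and both Scarna17 probe sets, and Scarna13. Rn7sk probe set 10426437 was higher by 0.78 ± 0.11 (limma, adjusted p = 0.000535) and probe set 10595140 by 0.54 ± 0.13 (limma, adjusted p = 0.0336). Scarna13 was at 6.39, 6.28 and 6.33 with PDGF-AB, above all 1 uM arrays (0.66 ± 0.14, limma, adjusted p = 0.0156). Rny3 was higher by 1.98 ± 0.55 and missed the threshold (limma, adjusted p = 0.0632). This comparison shares its 1 uM arrays with those above, so it is not separate evidence of the same differences.

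Against AG1296 10 uM, the 2 identical Scarna17 probe sets passed, 1 measurement (0.42 ± 0.11 higher with PDGF-AB, limma, adjusted p = 0.0459), where 3.15% of all probe sets did. Without AG1296 10 uM replicate 3, a choice made on these members' own values, 11 members were higher and 0 lower. Of all probe sets, 0.959% then passed as higher. Rmrp was then higher by 1.00 ± 0.14 (limma, adjusted p = 0.00154), Rny3 by 1.59 ± 0.25 (limma, adjusted p = 0.00415) and Snord15a by 1.68 ± 0.28 (limma, adjusted p = 0.00603).

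Over the 4 groups at once, limma's F test passed 8 members for 7 symbols, where 4.62% of all probe sets passed. They were Rn7sk (probe set 10426437, adjusted p = 0.00141), Rpph1 (0.00254), Snord15b (0.00314), Scarna17 (0.00648, both probe sets), Rmrp (0.00663), Snord35a (0.00743) and Snora52 (0.00745).

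The proteins that make, process and carry these RNAs were counted by list, beside 0.262% to 4.82% of all probe sets called per comparison. RNA polymerase III and its factors (20 measured genes), RNase P and MRP proteins (11), 7SK particle proteins (7), signal recognition particle proteins (7), snRNP proteins (18) and the factors of snRNA transcription and processing (23) had 0 genes called in any of the 6 comparisons. At 1 uM against untreated, their medians were 0.05, 0.02, 0.01, 0.07, -0.06 and -0.06, beside -0.01 for all probe sets. The closest of the RNA polymerase III list was Gtf3c6 at 10 uM, a subunit of TFIIIC (-0.48 ± 0.12, limma, adjusted p = 0.061).

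Calls in the other lists were single genes. Of 11 H/ACA genes, Nolc1, a nucleolar chaperone of small nucleolar particles, rose at 1 uM from 5.37 ± 0.20 to 6.02 ± 0.18 (SD, n = 3; 0.65 ± 0.12, limma, adjusted p = 0.012). Of 11 box C/D genes, the assembly factor Nufip1 was lower with PDGF-AB than with 1 uM AG1296 (-0.56 ± 0.13, limma, adjusted p = 0.027), and Fbl, the methyltransferase of box C/D particles, differed by -0.01 ± 0.10 at 1 uM. Ro60, the Y RNA-binding protein, was the 1 gene called of 9 in its list: it was higher with PDGF-AB than with 1 uM AG1296 (0.36 ± 0.09, limma, adjusted p = 0.030) and than with 10 uM (0.36 ± 0.09, limma, adjusted p = 0.041). Against untreated its differences were -0.30 ± 0.09 at either dose and did not pass (limma, adjusted p = 0.095 and 0.13). Snrpd1 of the Sm and Lsm list (15 genes) and Wdr77 of the SMN and cap list (14 genes) were higher with PDGF-AB than with 10 uM AG1296 (0.43 ± 0.11 and 0.34 ± 0.08, limma, adjusted p = 0.049 and 0.041).

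Of 7 measured genes in a list of hosts known mainly for their small nucleolar RNAs, none was called at 1 uM. At 10 uM Taf1d, which is protein-coding, fell from 8.14 ± 0.07 to 7.49 ± 0.06 (SD, n = 3; -0.65 ± 0.12, limma, adjusted p = 0.013). With PDGF-AB against 10 uM, Taf1d (0.56 ± 0.12, limma, adjusted p = 0.021) and Snhg5 (0.48 ± 0.09, limma, adjusted p = 0.010) were higher. Gas5, the host of Snord47, was at 10.16 ± 0.03 in untreated cells and 10.19 ± 0.11 at 1 uM.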

How the data were processed

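There were 12 Affymetrix arrays of total RNA, 3 per group. Per the labels' protocols, RNA was isolated with a Qiagen micro column kit, a type that recovers short RNA poorly, and labelled with the Affymetrix WT kit; what was lost on the column cannot be seen here. The authors deposited 1 log2 value for each probe set and array. The submitters' processing notes name RMA and limma, without versions or settings, and the log2 values were taken over unchanged. Each probe set's gene came from the platform annotation, and all 71 members matched a RefSeq record by gene ID.

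One limma 3.58.1 fit (R 4.3.3) with a mean per group gave 6 two-sided comparisons and an F test, with Benjamini-Hochberg adjustment over 21789 single-symbol probe sets, without a filter on dim ones (prior degrees of freedom 5.12, residual 8). It was tested on simulated data. Named were all small subclasses, every called Snora or Snord, and those with the 5 highest and lowest levels and the 5 largest rises and falls against untreated; up to 4 genes per partner list. The members and lists were chosen with earlier results of these data known. The alternatives were all probe sets, 1 probe set per symbol, a filter on dim probe sets, centring, quantile normalization, trend and robust moderation, a replicate block, only the arrays compared, and leaving out each array.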

Additional observations from a re-analysis of the deposited data

How the results depend on the processing

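Each called difference of a member, and each of 0.5 or more on the log2 scale against untreated, kept its sign in all alternatives; centring on the members' own median turned others, as given with the result. At 1 uM AG1296 against untreated, the falls of Rmrp, Rpph1 and Snora52 passed in all 21 alternatives, that of Rn7sk (probe set 10426437) in 20, those of Scarna17 and Snord35a in 19, Rny1 in 15 of 20, Rny3 in 14 of 21, Snord16a in 13, Snord49b in 12 and Rnu3a in 9. The rise of Snord15b at 10 uM passed in all 21. The cause was not tested for any count that moved. Counts below that stand without a share of all probe sets describe only how the calls moved and are no result about the members.

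Of the 71 members, leaving out 1 array gave 5 to 15 calls at 1 uM against untreated (main 12): 5, 6 and 7 without untreated replicates 1, 2 and 3, 6 and 7 without AG1296 1 uM replicates 1 and 3, and 15 without AG1296 10 uM replicate 3. The other ranges were 1 to 12 at 10 uM against untreated (main 1; 12 without AG1296 10 uM replicate 3), 0 to 5 between the doses (main 1; 5 without AG1296 10 uM replicate 2 and 0 without each of the other 11 arrays), 7 to 17 for PDGF-AB against 1 uM (main 10; 17 without AG1296 10 uM replicate 3), 0 to 11 for PDGF-AB against 10 uM (main 2; 11 without AG1296 10 uM replicate 3, 1 without PDGF-AB replicate 1 and 0 without each of the other 10), 0 to 1 for PDGF-AB against untreated (1 without AG1296 10 uM replicate 2) and 8 to 14 for the F test (main 8; 14 without AG1296 10 uM replicate 3).

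Centring on the members' median gave 26 calls at 1 uM against untreated and 14 in the F test. It gave 0 between the doses and for PDGF-AB against 10 uM. For PDGF-AB against 1 uM it gave 8 higher and 2 lower, where 0.464% of all probe sets passed as higher and 17% as lower. A filter on dim probe sets gave 4 calls at 10 uM, 1 for PDGF-AB against untreated and 15 in the F test. Trend and robust moderation gave 4 and 1 in the same comparisons, 3 between the doses, 3 for PDGF-AB against 10 uM and 14 in the F test. Testing all probe sets, or only the 6 arrays compared, gave 0 between the doses and 0 for PDGF-AB against 10 uM. The latter comparison gave 0 with centring on all probe sets and 1 with 1 probe set per symbol or distinct symbols, the last chosen after seeing the data.

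Arrays with the same replicate number deviated from their group means together only weakly (r -0.04 to 0.31, median 0.12, 18 pairs, against a median of -0.04 over 36 pairs of different number). Not every pair was above 0.1, so the numbers were not taken to pair arrays, although 8 of 12 arrays were closest to their own number and the 6 pairs of replicate 2 were at 0.16 to 0.31. With the replicate block there were 12 calls at 1 uM, 1 at 10 uM, 1 between the doses, 12 for PDGF-AB against 1 uM and 0 for PDGF-AB against 10 uM. Of the 12 at 1 uM, 11 were calls of the fit without it: Rnu3a did not pass (limma, adjusted p = 0.0652) and Rn7sk probe set 10595140 did (0.0384). Scarna17 for PDGF-AB against 10 uM was at 0.0554. The number of arrays, 3 per group, limits the precision, and 38 of the 71 members lie at or below the median level, where small differences are hard to detect.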
